A study of Mus musculus with 16 samples.

Results

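Messenger RNA of 10 genes of the TGF-beta pathway was followed in CD11b+ cells of the mouse brain. The 10 genes were Tgfb1, Tgfb2, Nrros, Tgfbr1, Tgfbr2, Smad2, Smad3, Smad4, Smad7, and Skil. They were taken by name from a table of 24421 gene rows, and all 10 passed the filter on low counts with 14565 genes in all. CD11b, an integrin subunit, marks microglia and other myeloid cells, which were pulled out of the dissociated brain with antibody beads on a magnet. One library was made per C57BL/6J mouse, in 3 groups. CON mice (n = 4) ate standard chow. MAL mice (n = 5) ate an isocaloric diet low in protein and fat after weaning. MAL-BG mice (n = 7) ate that low diet and were also given, by oral gavage, a mix of Escherichia coli and Bacteroidales. According to the Methods all mice were female, and the CON and MAL mice were gavaged with PBS, the saline in which the bacteria were carried. The labels name cortical tissue as the source and the Methods name whole cerebra. Each library is named here by its group and its running number in the table.

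TGF-beta is a secreted cytokine that is stored in a latent complex and has to be released before it can act. Active ligand binds a type II receptor, which phosphorylates the type I receptor. The type I receptor in turn phosphorylates SMAD2 and SMAD3, and these enter the nucleus together with SMAD4. In the brain, microglia depend on TGF-beta1 for their mature identity, and they hold the latent form at their surface with NRROS (also called LRRC33). SMAD7 blocks the receptor, SKIL (SnoN) is a corepressor that binds the SMAD complex, and the genes of both are switched on by TGF-beta in many cell types.

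The bases just before the start of transcription are shown for the genes of the 2 ligands and of the type I receptor, whose levels are described further on. RefSeq (GRCm38.p6) gave such a stretch for 6 of the 10 genes, and a pair of them for Tgfbr1, of which the first along the gene is shown. Each line holds 250 bases, 5′ to 3′ on the strand of the gene. Capitals mark GC boxes (GGGCGG or, on the other strand, CCGCCC) and the short SMAD binding element (CAGAC or GTCTG).
Tgfb1, chr7:25686752-25687001, plus strand: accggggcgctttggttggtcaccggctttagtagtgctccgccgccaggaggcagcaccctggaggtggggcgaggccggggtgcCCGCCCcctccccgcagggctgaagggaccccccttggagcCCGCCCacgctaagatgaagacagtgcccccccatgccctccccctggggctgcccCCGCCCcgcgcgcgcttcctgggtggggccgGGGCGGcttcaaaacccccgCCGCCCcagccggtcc
Tgfbr1, chr4:47352972-47353221, plus strand: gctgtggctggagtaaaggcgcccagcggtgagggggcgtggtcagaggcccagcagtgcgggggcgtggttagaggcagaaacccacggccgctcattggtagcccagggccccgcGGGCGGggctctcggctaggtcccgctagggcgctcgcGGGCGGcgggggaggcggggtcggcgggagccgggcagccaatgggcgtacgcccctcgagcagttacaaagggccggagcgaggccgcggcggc
Tgfb2, chr1:186705990-186706239, minus strand: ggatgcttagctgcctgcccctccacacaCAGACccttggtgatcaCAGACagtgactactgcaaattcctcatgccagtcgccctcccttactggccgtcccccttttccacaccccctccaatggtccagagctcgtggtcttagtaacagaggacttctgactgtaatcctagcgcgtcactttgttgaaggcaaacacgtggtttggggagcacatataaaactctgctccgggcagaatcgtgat
The Tgfb1 stretch held 5 GC boxes and 75.2% G and C, and the Tgfbr1 stretch shown held 2 GC boxes and 74.8% G and C. The other Tgfbr1 stretch (chr4:47385966-47386215, plus strand) had no GC box, 52.8% G and C, and 1 SMAD element. The Tgfb2 stretch had no GC box, 53.6% G and C, 2 copies of the SMAD element, and 1 TATAAA. Of 32851 mouse stretches of the same length, 32.7% held a GC box, 42.2% the SMAD element, and 12.4% TATAAA or its reverse complement. These matches describe the letters only.

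Library totals were 10312703 to 13461574 counts in CON, 10864121 to 12819982 in MAL, and 14191791 to 18705202 in MAL-BG. Levels are given as CPM, the counts of a gene relative to the TMM-scaled total of its library. All 15 microglia markers had counts in every library, and their summed level was 20211 to 32418 CPM in CON, 20701 to 35079 in MAL, and 42485 to 58892 in MAL-BG, so that every MAL-BG library lay above the other 9. RNA of other cells was also present. The sum of 10 choroid plexus markers was 10776 to 41581 CPM in CON, 5019 to 32736 in MAL, and 1480 to 13250 in MAL-BG. For CON, MAL, and MAL-BG in turn, the sums of astrocyte markers (284 to 623, 351 to 570, and 151 to 274 CPM) and neuron markers (112 to 574, 133 to 473, and 25.5 to 84.0 CPM) were likewise lowest in MAL-BG. Endothelial markers summed to 572 to 2024, 526 to 1478, and 1220 to 3814 CPM, fibroblast markers to 420 to 1164, 320 to 1115, and 93.7 to 418 CPM, and ependymal markers to 126 to 219, 54.3 to 197, and 26.3 to 99.2 CPM. Neutrophil markers summed to 475 to 1219, 516 to 1064, and 542 to 11642 CPM, with the last value in MAL-BG replicate 5 and at most 2844 CPM in any other library. Of the 9 neutrophil markers tested, 8 were called higher in MAL-BG against CON and against MAL, with medians of 4.21 and 3.95 on the log2 scale. The levels below are therefore those of the CD11b+ fraction and not of microglia alone, and fewer cells of a type and less RNA per cell cannot be told apart in it.

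In CON, the type I receptor gene Tgfbr1 had the highest level of the 10 genes per kilobase of exon (152.6 ± 32.5 CPM per kb, SD, n = 4), and its range did not overlap with that of the next gene. Tgfb1 (58.1 ± 5.2), Nrros (54.2 ± 22.2), Skil (49.4 ± 8.3), Tgfbr2 (41.8 ± 2.4), Smad7 (36.2 ± 15.1), and Smad3 (23.1 ± 6.2 CPM per kb) followed. Neighbours in that order overlapped. Smad4 (15.1 ± 0.53), Tgfb2 (10.7 ± 4.3), and Smad2 (6.6 ± 0.45 CPM per kb) were lowest, and the range of Smad4 lay wholly below that of Smad3. The ligand genes therefore stood far apart in CON, with Tgfb1 above Tgfb2, and so did the genes of both receptors, with Tgfbr1 above Tgfbr2 in every library.

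**Figure D1:**
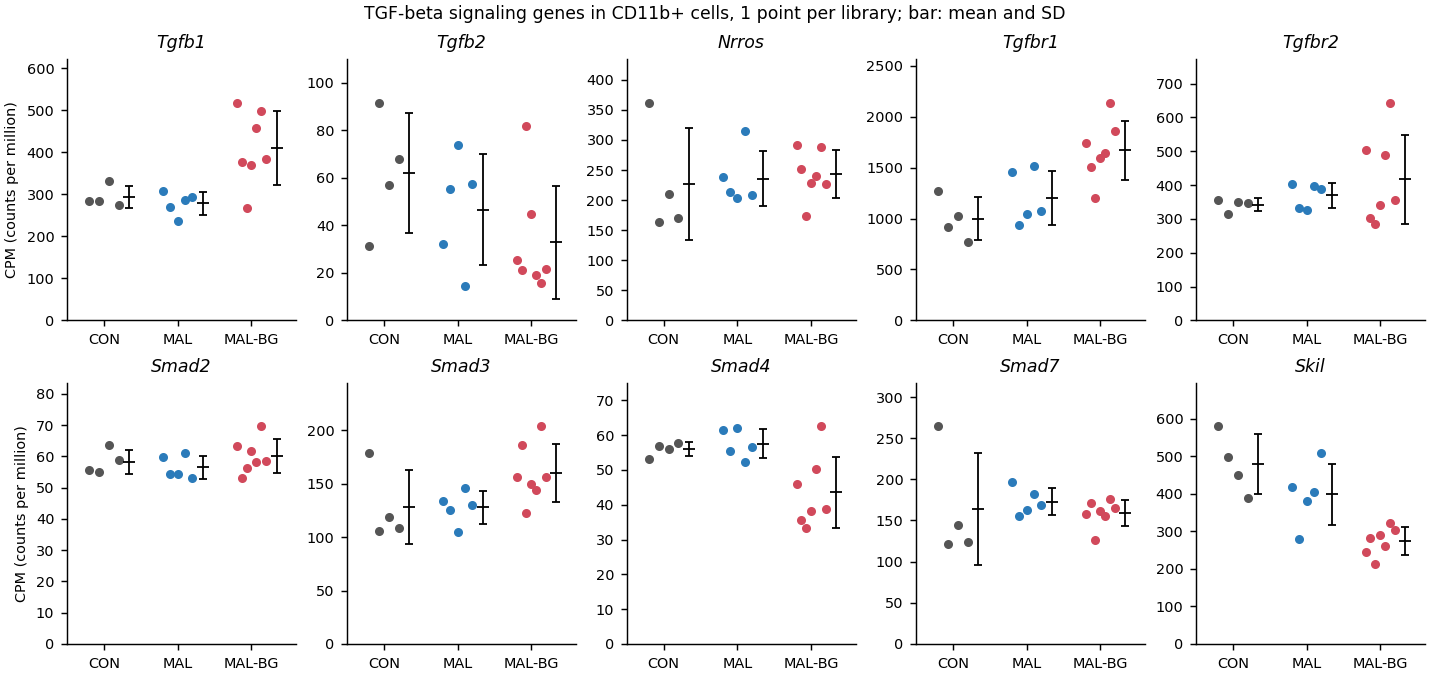
CPM (linear axes from 0) of the 10 genes in each library of CON (n = 4), MAL (n = 5), and MAL-BG (n = 7), with the mean and SD of each group at its right. Tgfbr1 and Tgfb1 are high and Skil is low in most MAL-BG libraries, Tgfb2 is low in all MAL-BG libraries but replicates 3 and 4, and Smad2 lies between 52.9 and 69.7 CPM throughout.

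The comparison of MAL-BG with CON asks how the low diet together with the bacteria changed these cells, and that of MAL-BG with MAL how the bacteria changed them on the low diet. Both use the same 7 MAL-BG libraries, so they are not independent. Against CON, Tgfbr1 rose to 1.67 times its level and Skil fell to 0.572 times its level, and these were the genes of the 10 called, that is, with a log2 fold change beyond ±0.58 and an adjusted p under 0.05 (edgeR quasi-likelihood test, Benjamini-Hochberg adjustment over 14565 genes). Over all genes tested, 11.4% were called higher and 21.7% lower, so 1 call in each direction among 10 genes is near that background. Against MAL, 0 of the 10 genes were called, with 10.2% of all genes called higher and 20.2% lower. There, 3 of the 10 were higher and 2 lower at an unadjusted p under 0.05, beside 24.2% and 28.1% of all genes, and DESeq2 called 1 higher and 0 lower, beside 11.9% and 20.4% of all genes. These shares too are near the background.

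By the adjusted p alone, the same 4 genes passed in both comparisons. Tgfb1 and Tgfbr1 were higher, and Smad4 and Skil lower, in MAL-BG. The background for 2 of 10 in each direction is 19.8% of all genes higher and 25.2% lower against CON, and 20.2% higher and 24.1% lower against MAL. The median log2 fold change of the 10 genes was 0.07 against both CON and MAL, beside −0.04 and −0.03 over all genes. Their median absolute log2 fold change was 0.34 and 0.36, beside 0.46 and 0.43 over all genes. None of the 10 genes had all 7 MAL-BG libraries above the other 9 (6.17% of all genes did) or below them (6.36% of all genes).

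**Figure D2:**
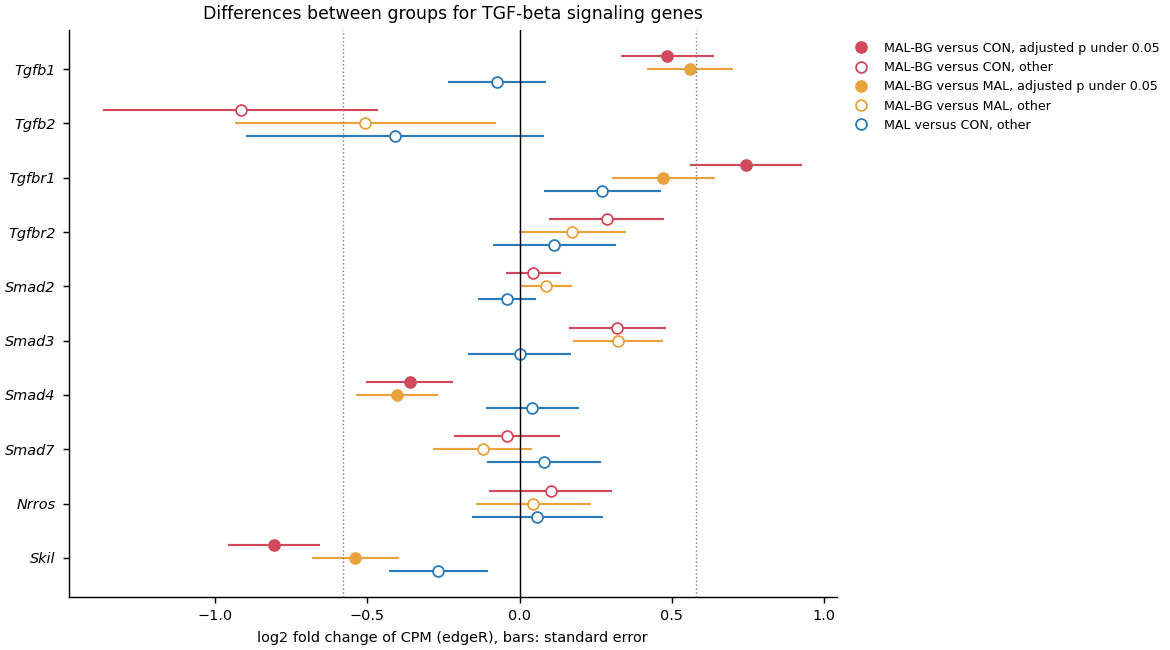
Log2 fold change (TMM scaling) with its standard error for the 10 genes in MAL-BG versus CON, MAL-BG versus MAL, and MAL versus CON. Filled points have an adjusted p under 0.05, dotted lines mark ±0.58, and 4 genes (Tgfb1, Tgfbr1, Smad4, and Skil) have filled points in both MAL-BG comparisons and none in MAL versus CON.

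Among the ligand genes, Tgfb1 was at 283, 284, 332, and 273 CPM in CON and at 308, 270, 237, 285, and 292 CPM in MAL. In MAL-BG it ran from 268 CPM in replicate 3 through a median of 384 to 518 CPM. All MAL-BG libraries but replicate 3 lay above every CON and MAL library. The log2 fold change was 0.48 ± 0.15 (SE) against CON (adjusted p = 0.0160, edgeR) and 0.56 ± 0.14 against MAL (adjusted p = 0.00463), under the fold threshold in both, and its sign turned only where libraries were scaled to the microglia markers (−0.31 and −0.17). Without MAL-BG replicate 3 it was 0.64 against MAL, past the threshold.

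Tgfb2 encodes a second ligand. It was at 31.2, 91.7, 57.0, and 68.1 CPM in CON and at 32.2, 55.2, 74.0, 14.4, and 57.5 CPM in MAL. In MAL-BG the lowest library had 15.6 CPM, the median was 21.8, and replicate 3 had 82.0 CPM. The groups overlapped, and the log2 fold change of −0.92 ± 0.45 relative to CON and −0.51 ± 0.43 relative to MAL did not pass (adjusted p = 0.108 and 0.348, edgeR). Replicate 3 decided this. Without it, Tgfb2 was called lower against CON (−1.34, adjusted p = 0.00891) and against MAL (−0.93, adjusted p = 0.0464). An exon of Tgfb2 overlaps an exon of Gm29491 on the other strand, and the strand setting of the counting is not given in the sources used here, so reads of these genes could not be told apart if strand was not used.

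Tgfb2 also followed the RNA of other cells. It was high where choroid plexus markers were high. The CON library with the lowest choroid plexus sum (replicate 1) had the lowest Tgfb2 of its group, as did MAL replicate 4 (sum 5019 CPM, Tgfb2 14.4 CPM), while MAL-BG replicate 3 had the highest sum and the highest Tgfb2 of MAL-BG. Over the 9 CON and MAL libraries, the log2 levels had Pearson's r = 0.96 (exact permutation test, adjusted p = 0.0107 over 40 relations) and Spearman's rho = 0.75 (exact permutation test, adjusted p = 0.113). With the 2 libraries farthest from the median sum left out, r was 0.89 (exact permutation p = 0.0192, n = 7). Within the 7 MAL-BG libraries r was 0.83 (exact permutation test, adjusted p = 0.0794). Choroid plexus was not alone in this. The fibroblast marker sum too was lowest of its group in CON replicate 1 (420 CPM) and MAL replicate 4 (320 CPM). It was highest of MAL-BG in replicate 3 (418 CPM). The astrocyte, neuron, ependymal, endothelial, and mural cell (vessel wall) sums had the same libraries at those ends. Of these, the endothelial and mural cell sums had higher medians in MAL-BG (1759 and 938 CPM) than in CON (1164 and 764) or MAL (1046 and 656). Relations of Tgfb2 to these sums were not tested, so its tie is not shown to be particular to choroid plexus. The part of RNA of any of these cells in the Tgfb2 difference between groups was not tested.

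Nrros, which tethers latent TGF-beta1 at the microglial surface, was at 362, 163, 210, and 170 CPM in CON and at 239, 214, 204, 314, and 209 CPM in MAL. The MAL-BG libraries ran from 174 through a median of 240 to 292 CPM. The highest value of all was that of CON replicate 1, and the groups overlapped widely. Nrros differed by 0.10 ± 0.20 (log2) from CON (adjusted p = 0.706, edgeR) and by 0.04 ± 0.19 from MAL (adjusted p = 0.867).

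Within the CON and MAL libraries, Nrros moved with the microglia marker sum (Pearson's r = 0.89, exact permutation test, adjusted p = 0.0136, Spearman's rho = 0.88, exact permutation test, adjusted p = 0.0308, and r = 0.84 without the 2 farthest libraries). Smad3 (r = 0.88, adjusted p = 0.0136, exact permutation test) and Tgfbr1 (r = 0.87, adjusted p = 0.0254, exact permutation test) did so too, and Tgfb2 moved against that sum (r = −0.90, adjusted p = 0.0107, exact permutation test). Their Spearman's rho was 0.88, 0.85, and −0.88 (exact permutation test, adjusted p = 0.0308, 0.0486, and 0.0308). Without the 2 farthest libraries r was 0.92 for Smad3 and −0.89 for Tgfb2, and 0.72 for Tgfbr1 (exact permutation p = 0.0643, n = 7), so the relation of Tgfbr1 rests in part on those libraries. Tgfbr1 also ran against the choroid plexus sum (r = −0.83, adjusted p = 0.0335, exact permutation test), but rho was −0.73 (adjusted p = 0.123, exact permutation test) and r was −0.55 without the 2 farthest (exact permutation p = 0.191, n = 7), so it rests on those libraries. By rank, Tgfbr2 ran against the choroid plexus sum as well (rho = −0.88, adjusted p = 0.0308, exact permutation test), with r = −0.81 (adjusted p = 0.0548, exact permutation test) and r = −0.58 without the 2 farthest (exact permutation p = 0.166, n = 7). The relations of Nrros, Smad3, Tgfbr1, and Tgfb2 were 6 of 40 relations with an adjusted p under 0.05 for r (10 genes, 2 marker sums, and 2 sets of libraries), and 0 of the 20 within MAL-BG were among them. CPM values of a library share 1 total, so the marker sums and the genes are not independent measures.

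**Figure D3:**
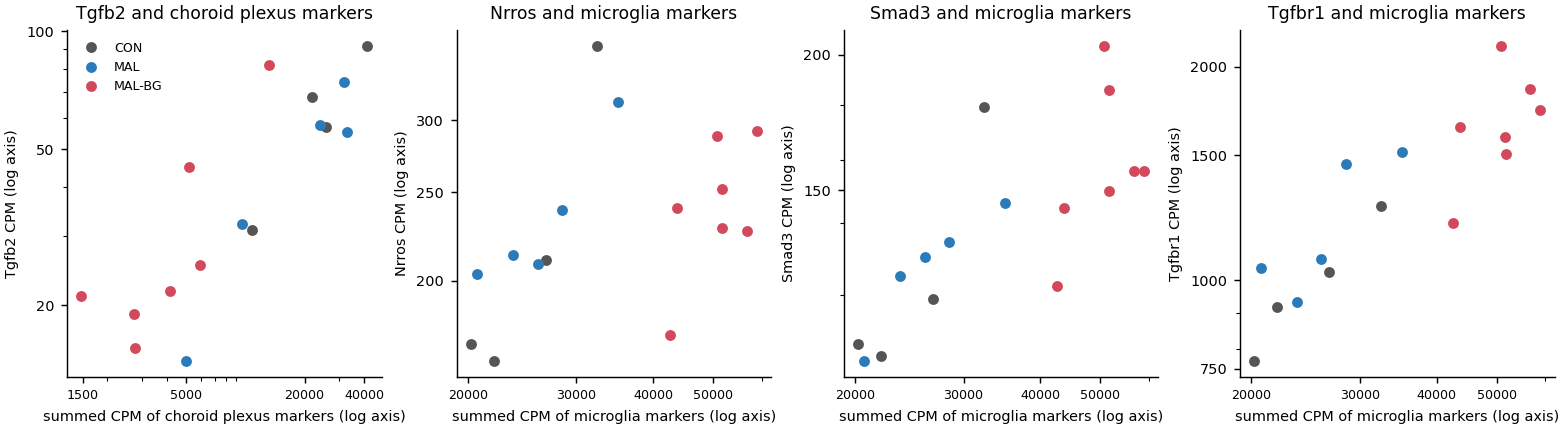
Level of Tgfb2 against the summed CPM of 10 choroid plexus markers, and of Nrros, Smad3, and Tgfbr1 against the summed CPM of 15 microglia markers, 1 point per library on log axes. Within the 9 CON and MAL libraries all 4 genes rise along the axis (r = 0.96, 0.89, 0.88, and 0.87), and the MAL-BG libraries lie at higher microglia sums, where Nrros is no higher than in CON or MAL.

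Of the receptors, Tgfbr1 was at 1273, 917, 1028, and 770 CPM in CON and at 1460, 932, 1041, 1516, and 1070 CPM in MAL. In MAL-BG it ran from 1206 CPM in replicate 3 through a median of 1642 to 2139 CPM. Replicate 3 was the MAL-BG library that fell below the highest CON library, and replicates 2 and 3 fell below the highest MAL library. The log2 fold change was 0.74 ± 0.18 against CON (adjusted p = 0.00396, edgeR), and from 0.63 to 0.87 with any 1 CON or MAL-BG library left out. It was −0.01 where libraries were scaled to the microglia markers. Against MAL it was 0.47 ± 0.17 (adjusted p = 0.0322) and −0.22 under that scaling. The microglia marker sum was higher in MAL-BG too, and its part in the Tgfbr1 difference was not tested beyond that scaling.

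Tgfbr2, the gene of the ligand-binding type II receptor, was at 357, 314, 351, and 346 CPM in CON and at 402, 332, 328, 399, and 389 CPM in MAL. In MAL-BG it spread from 284 through a median of 356 to 644 CPM, with replicates 1, 5, and 6 above every CON and MAL library and replicates 2 and 3 below them all. The log2 fold changes of 0.29 ± 0.19 against CON and 0.17 ± 0.18 against MAL did not pass (adjusted p = 0.231 and 0.441, edgeR).

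Of the receptor-activated SMADs, Smad2 was at 55.0 to 63.5 CPM in CON, 53.0 to 61.2 in MAL, and 52.9 to 69.7 in MAL-BG. It differed by 0.05 ± 0.09 (log2) from CON and by 0.09 ± 0.08 from MAL (adjusted p = 0.708 and 0.414, edgeR). Smad3 was at 179, 106, 119, and 108 CPM in CON and at 134, 125, 104, 146, and 130 CPM in MAL. MAL-BG libraries held 122 to 204 CPM with a median of 156, and CON replicate 1 lay inside that range. Its log2 fold change of 0.32 ± 0.16 against CON and 0.32 ± 0.15 against MAL did not pass (adjusted p = 0.109 and 0.0861, edgeR). Without CON replicate 1 the former was 0.51 (adjusted p = 0.00946), still under the fold threshold.

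Smad4, the shared partner of the other SMADs, was at 53.2, 56.9, 56.0, and 57.8 CPM in CON and at 61.5, 55.5, 62.2, 52.2, and 56.5 CPM in MAL. In MAL-BG it ran from 33.2 through a median of 38.9 to 62.6 CPM, and 6 of the 7 libraries lay below every CON and MAL library. Replicate 6 was the exception and held the highest Smad4 of all 16. The log2 fold change was −0.36 ± 0.14 against CON (adjusted p = 0.0478, edgeR) and −0.40 ± 0.13 against MAL (adjusted p = 0.0216), under the fold threshold in both. Against CON the adjusted p was 0.0589 with RLE scaling and 0.613 with mean log2 CPM scaling (−0.10). It was at most 0.0390 without MAL-BG replicate 5 or 6, and 0.0598 to 0.199 with any other CON or MAL-BG library left out.

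Of the inhibitors, Smad7 was at 265, 121, 145, and 124 CPM in CON and at 196, 155, 163, 182, and 168 CPM in MAL. MAL-BG libraries held 126 to 176 CPM with a median of 162. The groups overlapped, and the log2 fold changes of −0.04 ± 0.17 against CON and −0.12 ± 0.16 against MAL did not pass (adjusted p = 0.862 and 0.565, edgeR). Without CON replicate 1 the difference from CON was 0.27 (adjusted p = 0.0638), and without MAL-BG replicate 3 or 7 it was 0.00.

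Skil was at 580, 497, 451, and 388 CPM in CON and at 419, 280, 380, 403, and 508 CPM in MAL. In MAL-BG it ran from 214 through a median of 282 to 322 CPM. Every MAL-BG library lay below every CON library, and the overlap with MAL came from MAL replicate 2 alone. The log2 fold change was −0.81 ± 0.15 against CON (adjusted p = 0.000552, edgeR), and from −0.90 to −0.72 with any 1 CON or MAL-BG library left out. Against MAL it was −0.54 ± 0.14 (adjusted p = 0.00605), and −0.65 without MAL replicate 2, past the threshold. It stayed below 0 under every scaling tried, but the call against CON was lost with libraries scaled to the mean log2 CPM (−0.56, adjusted p = 0.0167) and with added offsets for length and GC content (−0.39, adjusted p = 0.0731).

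The ratio of 2 genes within a library does not depend on how libraries are scaled. Such ratios were formed for 6 pairs in 3 comparisons, with exact permutation tests of the mean log2 ratio (two-sided, adjusted over 18 tests), and 5 had an adjusted p under 0.05. The share of other gene pairs that would pass was not computed, so this count has no background beside it. With a difference of medians in place of means, none of the 18 passed, and those 5 kept their direction with adjusted p from 0.0758 to 0.118 (exact permutation tests). Both inhibitor genes were lower relative to Smad3 in MAL-BG. These ratios share Smad3 and are not independent. The log2 fold change of Smad3 itself was 0.32 against CON and against MAL, while that of Smad7 was −0.04 and −0.12. Skil was 3.24 to 4.71 times Smad3 in CON, 2.24 to 3.91 times in MAL, and 1.52 to 1.94 times in MAL-BG, with no overlap. Its log2 ratio differed by −1.14 from CON and −0.84 from MAL (exact permutation test, adjusted p = 0.0109 and 0.00758). Smad7 was 1.15 to 1.48 times Smad3 in CON, 1.24 to 1.56 times in MAL, and 0.863 to 1.08 times in MAL-BG, again with no overlap. Its log2 ratio differed by −0.31 from CON and −0.44 from MAL (exact permutation test, adjusted p = 0.0109 and 0.00758), and without CON replicate 1 the difference from CON was −0.22 (exact permutation test, adjusted p = 0.0563).

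Nrros relative to Tgfb1 was 0.714 to 1.10 in MAL and 0.524 to 0.670 in MAL-BG. The log2 ratio differed by −0.49 (exact permutation test, adjusted p = 0.00758). The difference from CON (0.574 to 1.28) was −0.30 and did not pass (exact permutation test, adjusted p = 0.227), and CON replicate 1 held the highest ratio. Tgfbr1 relative to Tgfbr2 was 2.22 to 3.57 in CON, 2.75 to 3.80 in MAL, and 3.32 to 5.22 in MAL-BG. Its log2 differences of 0.52 from CON and 0.36 from MAL did not pass (exact permutation test, adjusted p = 0.0545 and 0.0955), and without CON replicate 1 the former was 0.62 (exact permutation test, adjusted p = 0.0459). The ratio of Tgfb2 to Tgfb1 differed by −1.51 from CON and −1.08 from MAL (exact permutation test, adjusted p = 0.0955 and 0.223). Without MAL-BG replicate 3 the former was −1.87 (exact permutation test, adjusted p = 0.0286). Smad3 to Smad2 differed by 0.30 and 0.23 (exact permutation test, adjusted p = 0.227 and 0.144). The former was 0.49 without CON replicate 1 (exact permutation test, adjusted p = 0.0300) and the latter 0.27 without MAL-BG replicate 3 (adjusted p = 0.0390). The marker sums above differed between the same groups, and their part in these ratios was not tested.

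**Figure D4:**
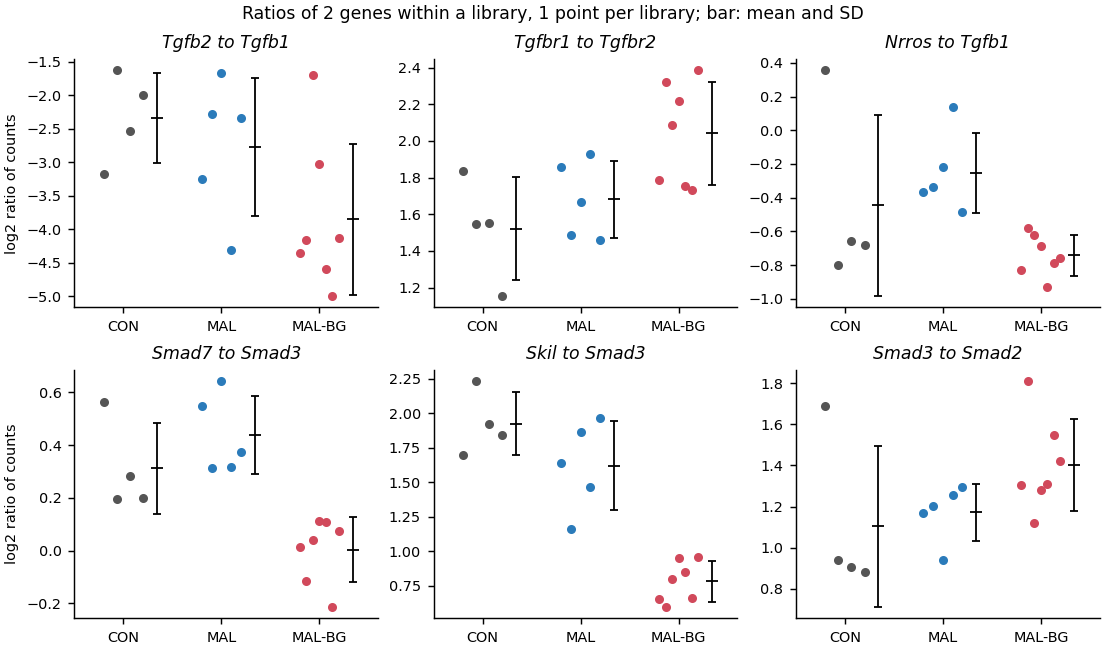
Log2 ratio of the counts of 2 genes within each library for 6 pairs, with the mean and SD of each group. In MAL-BG the ratios of Smad7 to Smad3 (at most 1.08) and Skil to Smad3 (at most 1.94) lie below those of all CON and MAL libraries.

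The comparison of MAL with CON asks what the low diet did on its own. No gene of the 10 was called, and neither was any of the 14565 genes (0%). The log2 fold changes of the 10 genes lay between −0.41 (Tgfb2) and 0.27 (Tgfbr1), and 0 of them had an unadjusted p under 0.05 in edgeR, against 212 of all genes. DESeq2 also called 0 of the 10. The standard errors, from 0.10 for Smad2 to 0.49 for Tgfb2, set the size of change that could have been seen. Of the ratios, 0 of 6 passed (exact permutation tests). Nrros relative to Tgfb1 was 0.19 higher in MAL on the log2 scale with all libraries (exact permutation test, adjusted p = 0.536). With 1 library left out, that difference ran from 0.08 to 0.46. The 0.46 came without CON replicate 1 (exact permutation test, adjusted p = 0.0459), so it rests on that choice.

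Further genes of the pathway were described in lists by their counts and medians. Each count stands beside the share of all genes called, which was 11.4% higher and 21.7% lower against CON and 10.2% higher and 20.2% lower against MAL. Genes that store, release, or activate the ligand moved both ways. Of 18 tested, 3 were called higher and 4 lower against CON, and likewise against MAL, with medians of −0.10 and 0.05. Itgb3, an integrin subunit, rose from 65.8 ± 19.4 CPM in CON (SD, n = 4) and 62.9 ± 10.5 in MAL (n = 5) to 158.4 ± 24.2 in MAL-BG (n = 7), and Mmp14, a membrane-bound protease, rose from 44.0 ± 2.7 and 47.7 ± 4.6 to 94.1 ± 30.4 CPM. Their log2 fold changes were 1.27 and 1.10 against CON and 1.33 and 0.98 against MAL. Itgb8, the subunit of an integrin that releases active TGF-beta1 from latent complexes, fell from 9.5 ± 2.4 and 10.9 ± 6.5 to 0.34 ± 0.23 CPM, and all MAL-BG libraries lay below the other 9. That level rested on 39 counts over the 7 MAL-BG libraries, against 476 over the 4 CON libraries (log2 fold change −4.74 ± 0.47, adjusted p = 5.75e-06, edgeR). Thbs1, the gene of thrombospondin 1, which can activate the latent ligand, fell as well (log2 fold change −2.09 and −1.35). The marker sums of other cells differed between the same groups, and their part in the falls of Itgb8 and Thbs1 was not tested.

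Of 10 other receptors of the family tested, 1 was called higher and 1 lower against CON, and 2 and 2 against MAL, with medians of 0.10 and 0.02. Bmpr2, a type II receptor for bone morphogenetic proteins, was at 130.9 ± 18.1 CPM in CON and 132.1 ± 16.3 in MAL against 201.9 ± 37.4 in MAL-BG (log2 fold change 0.62 and 0.61, but −0.15 and −0.07 with libraries scaled to the microglia markers). Its call against CON was lost without CON replicate 1 (0.53), CON replicate 3 (0.57), or MAL-BG replicate 3 (0.54), and its call against MAL without MAL replicate 2 or MAL-BG replicate 3 (0.53 each). Bmpr1b, a type I receptor for the same ligands, fell from at most 3.2 CPM (log2 fold change −1.92 and −1.74).

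Among 25 other SMADs and regulators of SMADs tested, 3 were called higher and 6 lower against CON, and 3 and 7 against MAL. Their medians were −0.23 and −0.20, but these depended on the processing. With mean log2 CPM scaling they were 0.01 and 0.005, beside 0.21 and 0.19 over all genes. With added offsets for length and GC content they were 0.20 and 0.19, beside 0.21 and 0.20. With the offsets, 5 genes were called higher and 5 lower in each comparison. Pmepa1, whose membrane protein holds back SMAD2 and SMAD3, rose from 340 ± 66.3 and 371 ± 131 CPM to 872 ± 306 CPM (log2 fold change 1.36 and 1.23). Smad1, which serves bone morphogenetic proteins, rose by 0.80 and 0.66 on the log2 scale (0.05 and −0.03 with libraries scaled to the microglia markers). Smad9, of the same branch, fell from a level of 4.3 ± 3.1 CPM in CON (−2.03 and −1.46). Usp9x, a deubiquitylase that acts on SMAD4, fell from 79.4 ± 5.2 and 86.3 ± 13.1 to 19.4 ± 15.6 CPM (−2.03 and −2.15), with all MAL-BG libraries below the other 9. Of 11 genes of the TAK1 arm, which carries TGF-beta signals past the SMADs, 0 were called in either comparison (edgeR), and by the adjusted p alone 1 was lower against CON, and 1 higher and 2 lower against MAL. At an unadjusted p under 0.05, 2 were higher and 2 lower in each comparison, beside 23.6% of all genes higher and 29.1% lower against CON and 24.2% and 28.1% against MAL. DESeq2 also called 0, beside 12.6% of all genes higher and 21.9% lower against CON and 11.9% and 20.4% against MAL.

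Of 17 genes that TGF-beta induces in many cell types, 0 were called higher and 7 lower against CON (11.4% and 21.7% of all genes), and 0 and 6 against MAL (10.2% and 20.2%). At an unadjusted p under 0.05 and in DESeq2, 0 were higher too. Their medians were −0.50 and −0.49. Cdkn1a, the gene of the cell cycle inhibitor p21, fell from 171 ± 33.7 in CON and 132 ± 17.6 in MAL to 42.7 ± 6.3 CPM in MAL-BG (−2.00 and −1.63), and Bhlhe40, a transcriptional repressor, from 68.6 ± 30.4 and 50.5 ± 13.8 to 18.0 ± 3.1 CPM (−1.93 and −1.49). Both genes had all 7 MAL-BG libraries below the other 9. Both are also induced by stimuli other than TGF-beta. The counts cover these 17 genes only. Smad7 and Skil, named above as switched on by TGF-beta, were counted with the 10 genes, where Skil was called lower against CON. Pmepa1, called higher in both comparisons, was counted with the regulators. Whether genes of other lists are also induced by TGF-beta was not considered in these counts.

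Of 19 microglial genes that depend on TGF-beta, 9 were called higher and 0 lower in both comparisons, with medians of 0.57. At an unadjusted p under 0.05, 1 was lower in each, and DESeq2 called 1 lower against MAL. This list shares 10 genes with the microglia markers, whose sum was higher in every MAL-BG library. Cx3cr1, the fractalkine receptor gene and one of the shared genes, rose by 1.33 and 1.10 on the log2 scale. With libraries scaled to the microglia markers, 2 of the 19 were called higher and 4 lower against CON, where 0.604% of all genes were called higher and 59% lower. Against MAL, 1 was called higher and 5 lower, where 0.639% and 54.8% of all genes were. The 10 shared genes help to set that scaling, which holds their mean change near 0. These counts therefore cannot show whether the list changed apart from the markers. Of 16 microglial genes that TGF-beta holds down, 2 were called higher and 1 lower against CON, and 2 and 4 against MAL, with medians of −0.04 and −0.36. Lpl, the gene of lipoprotein lipase, rose by 1.16 and 1.03, and Cst7, of the protease inhibitor cystatin F, by 0.82 and 0.72 on the log2 scale. In MAL versus CON, 0 of the 116 genes tested in these 7 lists were called by edgeR or DESeq2. At an unadjusted p under 0.05 (edgeR), 2 of the 116 were higher and 5 lower, beside 0.618% and 0.838% of all genes. Both counts are above that background, but 0 of all genes passed by the adjusted p alone in that comparison. Both of the 2 higher genes were among those held down, a list that also held 1 of the lower genes. The lists were chosen with earlier results of these data known, so no effect of the diet is read from these counts.

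How the libraries are scaled set the sign of several of the 10 genes. Against CON, the median over all genes tested was −0.04 with TMM, −0.02 with RLE, −0.06 with upper-quartile, 0.21 with mean log2 CPM, and −0.81 with microglia marker scaling. The share of calls that were higher was 34.4% with TMM, 57.8% with mean log2 CPM, and 1.01% with microglia marker scaling. Relative to those medians, the median of the 10 genes stayed higher, by 0.11 with TMM and mean log2 CPM and by 0.13 with microglia marker scaling. Under the last, all 10 log2 fold changes were below 0, and 0 of the 10 genes were called higher and 6 lower, beside 0.604% and 59% of all genes. Against MAL, 0 were called higher and 5 lower, beside 0.639% and 54.8% of all genes.

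**Figure D5:**
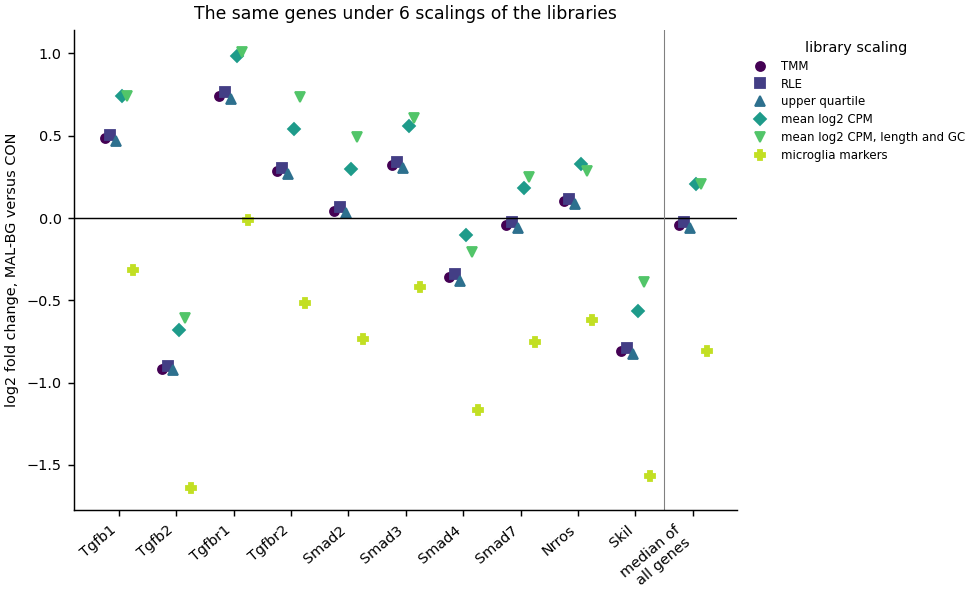
Log2 fold change of the 10 genes in MAL-BG versus CON under 6 scalings of the libraries (one symbol each), with the median of all genes tested at the right. The genes shift together with that median, from −0.81 (microglia marker scaling) to 0.21 (mean log2 CPM), and in each of the 6 Tgfbr1 is the highest and Skil and Tgfb2 the lowest of the 10.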

How the data were processed

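From stranded poly(A) libraries, the authors aligned read pairs with STAR to GRCm38.p6 and counted them per gene with HTSeq, and the deposited counts are raw. The counting mode, strand option, and annotation are not given in the sources used here. Their model had a batch term beside the group, but the batch of each library is not given in the sources used here. No batch term was therefore fitted, and effects of batch were not separated from those of group. Groups came from column names, whose numbers match no sample title. The names of 27 rows look like dates.

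Genes whose count exceeded 10 in 4 or more libraries were tested with edgeR 4.0.16 in R 4.3.3 (TMM, quasi-likelihood, all 3 groups together, Benjamini-Hochberg adjustment), and called with a log2 fold change beyond ±0.58 and an adjusted p under 0.05. Ratios used a pseudocount of 0.5 and two-sided exact permutation tests (scipy 1.17.1). Replicates are separate mice, and the spread between their libraries sets the precision. Alternatives were other scalings, filters, and thresholds, DESeq2 1.42.0, offsets for length and GC content (known for 96.3% of the genes), compared groups only, and each library left out. For the fold changes and calls of the 10 genes, left-out results are given for libraries of the groups compared. The steps were tested on simulated data.

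The 10 genes, pairs, and lists were chosen with earlier results of these data known. From each list, the genes named are the largest 2 rises and 2 falls against CON among genes called in both MAL-BG comparisons. One gene that this rule names is not reported here. None of the 10 genes was called in both, so no genes of like pattern were named. The relations to marker sums were added after seeing the data. Exon positions came from GENCODE M21, and only Tgfb2 overlaps another gene's exon.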

Additional observations from a re-analysis of the deposited data

Results flagged for a closer look

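Smad7 had a library far from the rest of its group in 2 groups. In CON, replicate 1 had 264.52 CPM and the other 3 had 121 to 145 CPM, so that its gap to the nearest library was 0.832 of the range (Dixon's critical value 0.829 for 4 samples). In MAL-BG, replicate 3 had 125.792 CPM and the other 6 had 156 to 176 CPM, with a gap of 0.594 of the range (critical value 0.568 for 7 samples). The test was run on 30 groups (10 genes in 3 groups) and chance flags about 1 in 20 of them. CON replicate 1 also had the highest microglia marker sum (32418 CPM) and the lowest choroid plexus sum (10776 CPM) of CON, and MAL-BG replicate 3 the lowest microglia sum (42485 CPM) and the highest choroid plexus sum (13250 CPM) of MAL-BG. The part of these in the Smad7 values was not tested.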

How the results depend on the processing

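No paired analysis was possible because the numbers of the columns match no sample title. The number of the 10 genes called against CON, 2 with TMM, was 6 with microglia marker scaling (all lower, as were 59% of all genes), 4 with length and GC offsets (all higher, as were 22.3%), and 4 with no fold change threshold (2 higher and 2 lower, beside 19.8% and 25.2%). Against MAL, 0 with TMM, it was 1 with RLE scaling and with DESeq2 (higher, beside 11.3% and 11.9%), 2 with mean log2 CPM scaling (higher, 21.4%), 5 with microglia marker scaling (lower, 54.8%), 4 with offsets (higher, 20.5%), and 4 with no fold change threshold (2 in each direction, 20.2% and 24.1%). With 1 library left out it was 2 to 3 against CON, 0 to 2 against MAL, and 0 for MAL versus CON. The single calls against MAL were Tgfb1 higher without MAL replicate 1 or MAL-BG replicate 2, 4, or 7, and Skil lower without MAL replicate 2 or MAL-BG replicate 6. Of the 18 ratio tests, 5 passed, 5 to 7 with 1 library left out, and 0 with a difference of medians, where splits that keep the middle libraries in place tie with the observed one. The cause of the other changes was not tested.

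With microglia marker scaling, the sign turned against CON for Tgfb1 (−0.31), Tgfbr1 (−0.012), Tgfbr2 (−0.52), Smad2 (−0.73), Smad3 (−0.42), Nrros (−0.62), and Bmpr2 (−0.15), against MAL for Tgfb1 (−0.17), Tgfbr1 (−0.22), Tgfbr2 (−0.55), Smad2 (−0.62), Smad3 (−0.38), Nrros (−0.65), Bmpr2 (−0.073), and Smad1 (−0.031), and in MAL versus CON for Smad4 (−0.021). Smad7 turned with mean log2 CPM scaling (0.18 against CON, 0.10 against MAL) and with offsets (0.25 and 0.13). Smad3 in MAL versus CON, at −0.00044, turned with upper-quartile (0.0071) and mean log2 CPM scaling (0.014), offsets (0.028), no filter (0.00067), edgeR's own filter (0.00034), and the compared groups only (0.015). With 1 library left out, against CON Smad7 ran from −0.17 to 0.27 and Nrros from −0.035 to 0.41, against MAL Nrros from −0.010 to 0.16, and in MAL versus CON Smad3 from −0.085 to 0.20, Smad7 from −0.042 to 0.40, Nrros from −0.072 to 0.37, and the ratio of Smad3 to Smad2 from −0.0067 to 0.26.

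For the lists, the same alternatives were applied after seeing the data. With microglia marker scaling, 0.604% of all genes were called higher and 59% lower against CON, and 0.639% and 54.8% against MAL. The genes called against CON numbered 5 of the receptors, 22 of the SMADs and regulators, 8 of the TAK1 arm, 12 of the induced genes, and 11 of those held down, and against MAL 18, 7, and 11 of the SMADs and regulators, the TAK1 arm, and those held down. For the TAK1 arm the count was 1 with mean log2 CPM scaling in both comparisons, 3 and 1 with offsets, and 1 and 3 with no fold change threshold. DESeq2 called 5 of the genes held down against CON. With 1 library left out the counts against CON and against MAL were 7 to 10 and 7 to 8 for ligand release, 1 to 3 and 2 to 4 for receptors, 7 to 10 and 9 to 10 for SMADs and regulators, 0 to 1 and 0 to 2 for the TAK1 arm, 7 to 9 and 5 to 8 for induced genes, 9 to 11 in both for genes that depend on TGF-beta, and 3 to 5 and 4 to 7 for those held down.

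Each of the 10 genes had at least 179 counts in every library. The parts of depth, of the mix of cells, and of the mice in the spread between libraries were not tested. Levels per microglial cell are not known, because the whole fraction was measured.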
